A study of Mus musculus with 18 samples.

Results

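A set of 9 genes that canonical Wnt signalling is known to switch on were followed in newly made RNA of mouse embryonic stem (mES) cells labelled wild type (WT) or Tet2 knockout (Tet2-KO). TET2 is an enzyme that oxidizes 5-methylcytosine. The genes were Axin2, Sp5, Nkd1, T, Rnf43, Znrf3, Notum, Lgr5 and Tcf7. They were taken by name from the GENCODE M21 annotation and are 9 of the 54446 genes in the deposited counts. As a share of all nascent gene reads, Axin2 was 1.84-fold lower and Sp5 2.52-fold lower in Tet2-KO-labelled libraries than in WT, Nkd1, Rnf43 and Notum were lower by less, and Znrf3 and Tcf7 were higher by less than 1.20-fold. Per read of the ERCC spike-in, on which most genes were higher, Axin2 and Sp5 were lower by 1.10-fold and 1.53-fold on average, with calls at 20 min and not at 10 or 40 min, and the other 6 targets tested were higher on average, Nkd1, Rnf43 and Notum included. The average calls of Axin2 and Rnf43 on this scale were each lost with some single libraries left out.

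In canonical Wnt signalling, Wnt proteins bind Frizzled and LRP receptors and stop a destruction complex built around AXIN and GSK3 from degrading β-catenin. β-Catenin then enters the nucleus and acts with TCF and LEF factors at their target genes. Many targets act back on the pathway and damp it, among them Axin2, Nkd1, Rnf43, Znrf3 and Notum. In mES cells the pathway is known to help maintain the naive state, and it is commonly stimulated in culture by inhibiting GSK3.

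The series compared WT mES cells with Tet2-KO mES cells after 10, 20 or 40 min of 1 mM 5-ethynyl uridine (EU), a uridine analogue that marks RNA made during the pulse. Each of the 6 groups had 3 replicates, which gave 18 libraries. All cells, WT included, grew in serum and LIF with 3 μM CHIR99021, a GSK3 inhibitor, and 1 μM PD0325901, a MEK inhibitor, so every group was measured with the Wnt pathway stimulated below the receptor. The replicates were dishes of 1 WT line and 1 Tet2-KO line. Differences between the lines other than Tet2 therefore cannot be told apart from the genotype, and p-values measure the spread between dishes. The spike-in was added in an amount set by the total RNA of each sample, so a level per ERCC read is relative to total RNA and not to the number of cells. In bulk RNA, fewer cells that express a gene and less of its RNA per cell cannot be told apart.

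Between 17931614 and 23069143 reads per library fell on genes, and 44162 to 512186 on ERCC transcripts, a spike-in of synthetic RNAs. Reads on Tet2 were present in every library, between 589 and 741 CPM in WT and between 530 and 643 in Tet2-KO-labelled libraries. Such totals cannot tell whether part of the gene was deleted, so genotypes are those of the labels. Gene reads per ERCC read were 42.8 to 50.8, 140 to 157 and 239 to 259 in WT at 10, 20 and 40 min, and 89.6 to 101, 192 to 215 and 366 to 429 in Tet2-KO-labelled libraries. This shift is shared by most genes, so each target gene is given on 2 scales, as its share in CPM (reads per 1000000 gene reads) and as reads per 1000 ERCC reads. Of 8 markers of mES cells 7 were detected in every library and Sox2 had 0 reads in each. Gm45496 and 1110028F11Rik, which lie on the same strand as Nkd1 and Rnf43 and overlap them, also had 0 reads, and how the counting treated overlapping genes is not known, so a 0 is not read as absence of the RNA. The summed markers were 2872 to 3053 CPM in WT and 2093 to 2210 in Tet2-KO-labelled libraries, and the largest difference among them was in Zfp42, which was 4.76-fold lower. Of the 7 tested, 6 were called lower as a share on average and 1 higher, with a median log2 fold change of -0.26. Among all genes tested 32.0% and 24.6% were called in these directions. Per ERCC read 1 was lower and 5 higher, with a median of 0.47, beside 4.15% and 80.5% of all genes. Of 4 markers of the primed epiblast 3 were detected in every library, with a sum of 36.8 to 47.0 CPM in WT and 63.5 to 76.7 in the other libraries. As a share Otx2 was 4.49-fold and Dnmt3b 1.55-fold higher, Fgf5 was 3.04-fold lower, and Pou3f1 differed by -0.15 (adjusted p = 0.697). The part of these marker differences in the results below was not tested.

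TCF and LEF factors recognise a short sequence around CTTTG. The RefSeq promoter table of the GRCm38.p6 assembly, which reaches from 250 bases before a start to 50 bases after it, held 8 windows for 6 of the 9 genes, and none for Znrf3, Notum or Lgr5. Both strands were searched for CTTTGAT or CTTTGAA. It was found in the windows of Sp5 and T, 2 of the 8 windows and 2 of the 6 genes, while 8.65% of all 32851 windows held it. The core CTTTG was held by windows of 2 of the 6 genes, again Sp5 and T, while 53.9% of all windows held it. It occurred 5 times in the Sp5 window, a number reached by 0.286% of all windows, and 3 times in the T window, reached by 5.54%. No match was found in the windows of Axin2, Nkd1, Rnf43 and Tcf7, which says only that these letters are not there. The 250 bases before the start are shown for the 2 genes with a match and for Axin2, the target with the largest change in reads, from 5′ to 3′ on the gene's own strand, with the match in capitals. That of Sp5 lies at chr2:70474673-70474922 on the plus strand, with the match at position -104 from the start site. That of T lies at chr17:8434173-8434422 on the plus strand, with the match on the opposite strand at position -235. That of Axin2 lies at chr11:108920099-108920348 on the plus strand.
Sp5: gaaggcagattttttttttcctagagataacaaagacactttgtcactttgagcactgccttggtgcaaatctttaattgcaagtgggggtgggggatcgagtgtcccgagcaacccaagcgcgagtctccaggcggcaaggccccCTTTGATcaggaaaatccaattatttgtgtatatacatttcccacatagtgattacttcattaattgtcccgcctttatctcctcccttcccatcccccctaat
T: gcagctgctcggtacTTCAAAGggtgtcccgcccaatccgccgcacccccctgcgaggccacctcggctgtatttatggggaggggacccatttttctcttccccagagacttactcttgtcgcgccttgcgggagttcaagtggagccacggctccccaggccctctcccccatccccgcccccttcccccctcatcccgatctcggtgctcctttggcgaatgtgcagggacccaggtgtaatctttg
Axin2: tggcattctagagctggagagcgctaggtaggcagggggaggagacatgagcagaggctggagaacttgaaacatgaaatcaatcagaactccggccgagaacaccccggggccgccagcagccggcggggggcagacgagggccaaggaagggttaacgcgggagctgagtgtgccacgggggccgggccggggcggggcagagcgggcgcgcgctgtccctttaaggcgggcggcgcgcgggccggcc

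The first question was whether these targets had the same share of nascent RNA under both genotype labels. Averaged over the 3 labelling times, 5 of the 8 targets with enough reads to test were lower in Tet2-KO-labelled libraries and 2 were higher (edgeR's quasi-likelihood test, Benjamini-Hochberg adjusted over 19910 genes at 0.05). Among all genes tested 32.0% were called lower and 24.6% higher on this scale. The median log2 fold change was -0.20 over the 8 targets and -0.04 over all genes tested. The lower targets were Axin2, Sp5, Nkd1, Rnf43 and Notum, the higher ones Znrf3 and Tcf7, and Lgr5 was not called. The same number of calls in each direction was made with each of the 18 libraries left out in turn. Libraries of the 2 genotypes did not overlap at any of the 3 labelling times for only 1 target on this scale, Axin2, with the Tet2-KO-labelled libraries below, as for 13.9% of all genes tested.

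**Figure D1:**
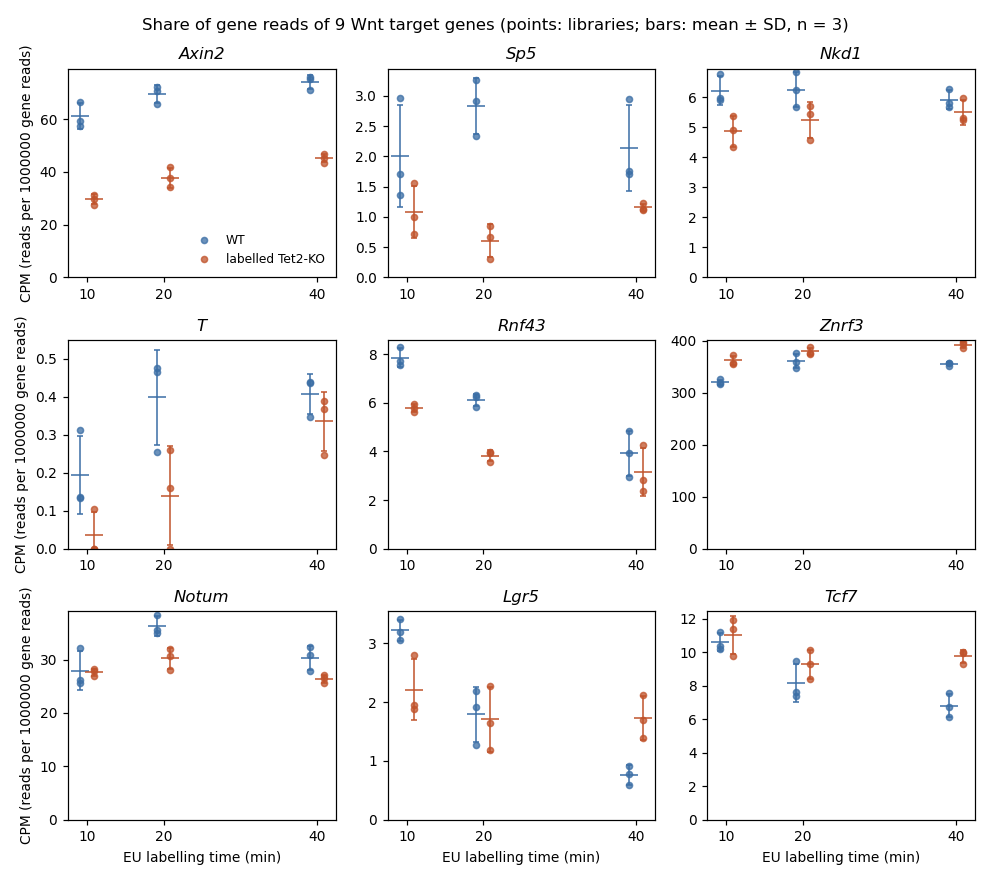
Share of gene reads in CPM of the 9 genes (vertical axes, each starting at 0) against EU labelling time in minutes, for WT (blue) and Tet2-KO-labelled libraries (red). Points are libraries and bars are the mean ± SD of 3. Axin2 lies between 57.3 and 76.0 in WT and between 27.6 and 46.6 in Tet2-KO-labelled libraries, and Lgr5 in WT goes from 3.22 at 10 min to 0.76 at 40 min.

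Axin2 encodes the inducible scaffold of the β-catenin destruction complex and is a widely used readout of the pathway. The gene spans chr11:108920349-108950783 on the plus strand (mm10). In WT its share was 59.2, 57.3 and 66.6 CPM at 10 min, 70.6, 65.7 and 72.2 at 20 min, and 76.0, 70.9 and 75.1 at 40 min. In Tet2-KO-labelled libraries it was 29.8, 31.4 and 27.6 at 10 min, 34.2, 41.8 and 37.6 at 20 min, and 45.4, 43.6 and 46.6 at 40 min. Every library labelled Tet2-KO lay below every WT library, also across times, and the values went up with labelling time in both. The log2 fold change was -0.88 (SE 0.04, adjusted p = 6.97e-20), from 1244 to 1753 reads per library in WT and 526 to 881 in Tet2-KO-labelled libraries. At 10, 20 and 40 min it was -1.04, -0.88 and -0.71, each past the threshold. The Axin2 difference lay at the 6.3th percentile of all genes tested.

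Nkd1 encodes an inhibitor that binds Dishevelled, and Notum a secreted enzyme that removes the lipid from Wnt proteins. Nkd1 lies at chr8:88521354-88594884 on the plus strand and Notum at chr11:120653788-120661175 on the minus strand. Nkd1 had 6.77, 5.88 and 5.98 CPM at 10 min in WT, 6.82, 5.65 and 6.24 at 20 min, and 5.81, 5.68 and 6.27 at 40 min. With Tet2-KO labels it had 4.89, 4.33 and 5.35, then 5.72, 5.44 and 4.57, then 5.22, 5.29 and 5.97. The genotypes were apart at 10 min and overlapped at 20 and 40 min. The mean difference was -0.24 on the log2 scale (SE 0.08, adjusted p = 0.0161), and it lost the call when genes were not filtered on low counts (adjusted p = 0.0624) or with DESeq2's size factors (adjusted p = 0.0535).

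Notum shares in WT were 25.6, 32.1 and 26.2 CPM at 10 min, 35.1, 35.4 and 38.4 at 20 min, and 30.8, 32.3 and 27.8 at 40 min. In Tet2-KO-labelled libraries they were 28.2, 26.9 and 27.8, then 31.9, 30.6 and 28.1, then 26.5, 27.1 and 25.6. Here the genotypes overlapped at 10 min and were apart, with Tet2-KO lower, at 20 and 40 min. The mean log2 fold change was -0.16 (SE 0.05, adjusted p = 0.00321). Notum overlaps 2 antisense genes, Notumos and Myadml2os, which had 240 and 134 reads in all WT libraries together, beside 5987 on Notum.

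Rnf43 and Znrf3 encode related membrane E3 ligases that clear Frizzled receptors from the cell surface, and as a share they moved in opposite directions. Per ERCC read Znrf3 was higher at each time, and Rnf43 was higher at 10 min (0.59) and not called at 20 min (-0.19, adjusted p = 0.420) or 40 min (0.38, adjusted p = 0.0975). Rnf43 lies at chr11:87662722-87735539 on the plus strand and Znrf3 at chr11:5276324-5444847 on the minus strand. Rnf43 had 8.30, 7.73 and 7.57 CPM in WT at 10 min, 6.31, 6.23 and 5.82 at 20 min, and 3.94, 4.85 and 2.96 at 40 min. The corresponding values with Tet2-KO labels were 5.96, 5.77 and 5.61, then 3.97, 3.57 and 3.96, then 4.27, 2.37 and 2.84. Rnf43 was lower without overlap at 10 and 20 min, overlapped at 40 min, and fell with labelling time in both genotypes. Its mean log2 fold change was -0.48 (SE 0.10, adjusted p = 1.80e-04).

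Znrf3 was by far the most abundant of the 9 in reads, with 6451 to 8368 per library. Its WT shares were 316, 319 and 326 CPM at 10 min, 375, 358 and 348 at 20 min, and 356, 358 and 352 at 40 min. Under Tet2-KO labels they were 372, 358 and 356, then 377, 374 and 387, then 386, 394 and 397. Znrf3 was higher without overlap at 10 and 40 min, and 1 WT library at 20 min reached the range of the others. The mean log2 fold change was 0.13 (SE 0.02, adjusted p = 4.54e-09), which is a 1.09-fold difference.

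Lgr5 encodes a receptor for R-spondins, proteins that shield Frizzled from those ligases, and it marks stem cells in several adult tissues. The gene lies at chr10:115450311-115587780 on the minus strand. It was the target whose difference depended most on labelling time. Its share was 3.41, 3.19 and 3.06 CPM in WT at 10 min, 2.19, 1.27 and 1.91 at 20 min, and 0.91, 0.78 and 0.58 at 40 min. In Tet2-KO-labelled libraries it was 2.80, 1.94 and 1.89, then 2.28, 1.19 and 1.64, then 1.69, 1.38 and 2.12. Libraries labelled Tet2-KO were all below WT at 10 min, overlapped at 20 min and were all above WT at 40 min. The log2 fold change was -0.53 at 10 min (SE 0.26, adjusted p = 0.0923), -0.08 at 20 min (adjusted p = 0.866) and 1.17 at 40 min (SE 0.31, adjusted p = 0.00291). These values rest on 12 to 76 reads per library. The cells had been cleared of feeders by passaging, and of 8 fibroblast markers 4 were detected in every library, Lum had 1 read in all libraries together and Dcn 24. Their summed level in WT was 15.9 to 16.4 CPM at 10 min, 2.93 to 4.17 at 20 min and 3.98 to 4.85 at 40 min, and with Tet2-KO labels 5.49 to 7.45, 11.3 to 12.7 and 5.29 to 6.97. Of the 5 fibroblast markers tested, 3 were lower as a share at 10 min under the Tet2-KO label, beside 27.1% of all genes tested. At 20 min 4 were higher and at 40 min 1, beside 17.6% and 18.9%. From 10 to 40 min in WT 4 fell, beside 29.5%. The change of the genotype difference from 10 to 40 min was called for 4, in the positive direction, beside 5.89%. The part of these markers in the Lgr5 values was not tested.

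Sp5 (chr2:70474923-70477729), T (chr17:8434423-8442496), both on the plus strand, and Tcf7 (chr11:52252371-52283014, minus strand) encode transcription factors. Sp5, a zinc-finger factor that responds directly to β-catenin, had 38, 66 and 30 reads in WT at 10 min, 64, 55 and 50 at 20 min, and 68, 36 and 35 at 40 min. With Tet2-KO labels it had 16, 28 and 19, then 16, 6 and 13, then 21, 23 and 22. Every library labelled Tet2-KO had fewer Sp5 reads than every WT library. As a share, 1 pair of libraries overlapped at 10 min, where the highest Tet2-KO value was 1.55 CPM and the lowest WT value 1.37, and the genotypes were apart at 20 and 40 min. The mean log2 fold change was -1.33 (SE 0.20, adjusted p = 7.31e-07), at the 2.8th percentile of all genes tested. By time it was -0.91, -2.21 and -0.89, each past the threshold. The 40 min call was lost without WT replicate 1 (-0.58, adjusted p = 0.255) or without any 1 of the 3 Tet2-KO-labelled libraries at that time, and the 10 min call without WT replicate 2 (-0.52, adjusted p = 0.252) or without Tet2-KO replicate 1 or 3.

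T encodes Brachyury, a T-box factor of the primitive streak, and was close to silent. It had 7, 3 and 3 reads in WT at 10 min, 5, 9 and 10 at 20 min, and 8, 9 and 9 at 40 min. With Tet2-KO labels it had 0, 0 and 2, then 3, 5 and 0, then 7, 5 and 7. The sums were 63 reads in the 9 WT libraries and 29 in the 9 others, and T was too low for the filter on counts. With all genes that had a read kept, its mean log2 fold change in share was -1.37 (SE 0.50, adjusted p = 0.0219), and per ERCC read it was -0.64 (adjusted p = 0.321). Of 8 other primitive streak and mesendoderm markers 3 were detected in every library, with a sum of 5.73 to 9.67 CPM in WT and 4.30 to 5.91 in Tet2-KO-labelled libraries.

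Tcf7 encodes TCF1, one of the factors that β-catenin binds. Its WT shares were 10.4, 10.2 and 11.2 CPM at 10 min, 7.63, 9.46 and 7.36 at 20 min, and 6.16, 7.54 and 6.70 at 40 min. In Tet2-KO-labelled libraries they were 11.4, 11.9 and 9.76, then 9.26, 10.1 and 8.38, then 10.0, 9.30 and 9.93. Libraries overlapped at 10 and 20 min and were apart, with Tet2-KO higher, at 40 min. The mean log2 fold change was 0.26 (SE 0.07, adjusted p = 0.00312). Tcf7 values are uncertain, because over 17144 bases the gene overlaps Gm26551, a lincRNA on the same strand with 4244 reads in WT against 1625 on Tcf7.

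By labelling time the share of 4 targets was lower and of 1 higher at 10 min, where 27.1% and 17.9% of all genes tested were called in these directions. At 20 min 4 were lower and 1 higher, beside 20.7% and 17.6% of all genes. At 40 min 3 were lower and 3 higher, beside 19.6% and 18.9%. Axin2 and Sp5 were among the lower targets, and Znrf3 among the higher, at all 3 times. Calls at 1 time that were lost under some alternatives were those of Sp5 at 10 and 40 min, Nkd1 and Rnf43 at 10 min, Znrf3 at 20 min, and Notum at 20 and 40 min. That of Znrf3 was lost without WT replicate 3 at 20 min (0.05, adjusted p = 0.199), without WT replicate 2 (adjusted p = 0.0737) or Tet2-KO replicate 3 (adjusted p = 0.132) at that time, and with protein-coding reads as the denominator (adjusted p = 0.0573). Those of Axin2 at all 3 times, Sp5 and Rnf43 at 20 min, Znrf3 at 10 and 40 min, and Lgr5 and Tcf7 at 40 min were lost under no alternative in which the gene was tested.

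The second scale sets each gene against the ERCC spike-in, which keeps the increase shared by most genes. On average over the labelling times, 6 of the 8 targets were higher in Tet2-KO-labelled libraries and 2, Axin2 and Sp5, were lower, while 80.5% of all genes tested were called higher and 4.15% lower. The median log2 fold change was 0.53 over the targets and 0.70 over all genes tested. Axin2 differed by -0.14 (SE 0.06, adjusted p = 0.0208) and Sp5 by -0.62 (SE 0.20, adjusted p = 0.00243). The Axin2 call was lost without Tet2-KO replicate 1 at 20 min (-0.10, adjusted p = 0.0995) and without Tet2-KO replicate 2 at 40 min (-0.11, adjusted p = 0.0639). Tcf7 had the largest increase, 0.99 (SE 0.09), or 1.98-fold, followed by Lgr5 with 0.92 (SE 0.18) and Znrf3 with 0.86 (SE 0.05). Notum gained 0.57 (SE 0.07) and Nkd1 0.50 (SE 0.11), both less than the median gene. Rnf43 gained 0.26 (SE 0.11, adjusted p = 0.0305), a call that was lost without Tet2-KO replicate 1 at 40 min (0.14, adjusted p = 0.267), without Tet2-KO replicate 3 at 20 min or WT replicate 3 at any of the 3 times, and with DESeq2 (adjusted p = 0.0533), TMM on the ERCC counts or no filter. Nkd1, Rnf43 and Notum thus lay above WT per ERCC read and below it as a share.

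**Figure D2:**
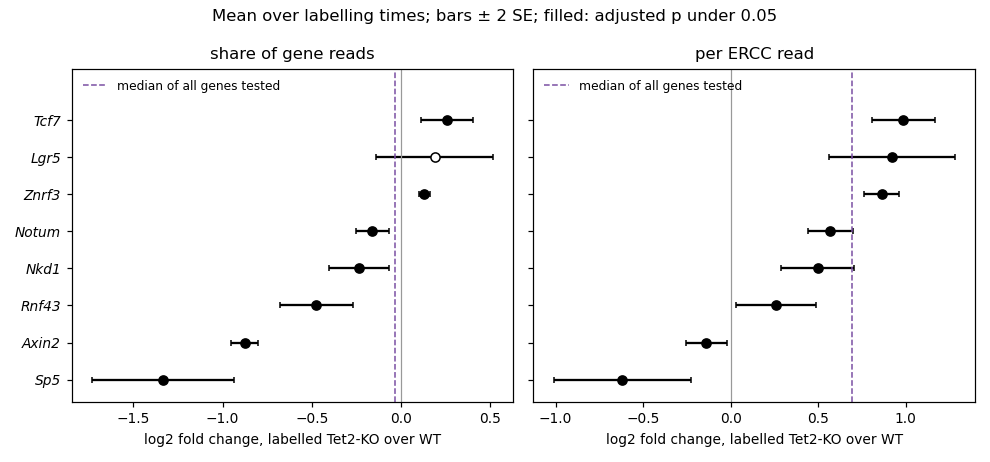
Log2 fold change of the 8 tested targets, Tet2-KO-labelled libraries over WT, averaged over labelling times, as a share of gene reads (left) and per ERCC read (right). Bars are ± 2 SE, filled points have an adjusted p under 0.05 and the dashed line is the median of all genes tested, -0.04 on the left and 0.70 on the right. Axin2 and Sp5 lie below 0 on both scales.

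At 10 min, 5 targets were higher per ERCC read and 0 lower, beside 79.0% and 2.10% of all genes tested. The higher ones were Nkd1, Rnf43, Znrf3, Notum and Tcf7, with log2 fold changes of 0.59 to 1.21. At 20 min 2 were higher, Znrf3 and Tcf7, and 2 lower, Axin2 (-0.38, adjusted p = 4.36e-04) and Sp5 (-1.74, adjusted p = 5.65e-06), beside 53.7% and 4.86% of all genes. At 40 min 5 were higher and 0 lower, beside 68.2% and 2.84%, and Lgr5 had the largest difference, 1.86 (SE 0.34, adjusted p = 2.34e-07). The Sp5 difference was 0.09 at 10 min (adjusted p = 0.799) and -0.21 at 40 min (adjusted p = 0.576), and that of Axin2 was -0.01 and -0.03 (adjusted p = 0.934 and 0.826). Axin2 levels per 1000 ERCC reads were nearly the same in the 2 genotypes at 10 min, 2.84 ± 0.08 (SD, n = 3) in WT and 2.82 ± 0.04 in Tet2-KO-labelled libraries, and at 40 min, 18.3 ± 0.26 and 17.97 ± 1.82. The interval of the Axin2 difference over all times (± 2 SE) reached from -0.26 to -0.02 on the log2 scale, away from the gain of the median gene. Znrf3, Notum and Tcf7 were higher without overlap at all 3 times on this scale, as were 51.6% of all genes tested, and 0 targets were lower without overlap, as were 1.56%.

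The level per 1000 ERCC reads increased with labelling time, and its slope by least squares over 9 libraries was taken as a relative rate of production. The slope of Axin2 was 0.50 reads per 1000 ERCC reads per min in WT (SE 0.03) and 0.51 in Tet2-KO-labelled libraries (SE 0.03). Sp5 gave 0.013 in both (SE 0.0037 and 0.0017). A line over all times does not show that both genes were lower in Tet2-KO-labelled libraries at 20 min. Axin2 levels were then 10.2 ± 0.11 (SD, n = 3) in WT and 7.83 ± 1.23 in Tet2-KO-labelled libraries. Those of Sp5 were 0.42 ± 0.08 and 0.12 ± 0.05. For Znrf3 the slopes were 2.33 (SE 0.21) and 4.02 (SE 0.18), a ratio of 1.72, and for Tcf7 0.037 (SE 0.0066) and 0.095 (SE 0.0074), a ratio of 2.54. Nkd1 had 0.037 and 0.057 (SE 0.0035 and 0.0037), Notum 0.19 and 0.25 (SE 0.031 and 0.019) and Rnf43 0.018 and 0.024 (SE 0.0062 and 0.0072). T, at its few reads, had 0.0029 and 0.0045 (SE 0.00045 and 0.00073). Lgr5 did not accumulate in WT, with a slope of 0.00054 (SE 0.0017), and did in Tet2-KO-labelled libraries, with 0.016 (SE 0.0029). The slope was larger in Tet2-KO-labelled libraries for 8 of the 9 genes, beside 86.8% of all genes tested, and the Axin2 slopes differed by 0.0069 with an SE of 0.045. With 10 and 20 min alone it was larger for 3 of the 9, beside 59.7% of all genes. Slopes are given as a description, with no test.

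**Figure D3:**
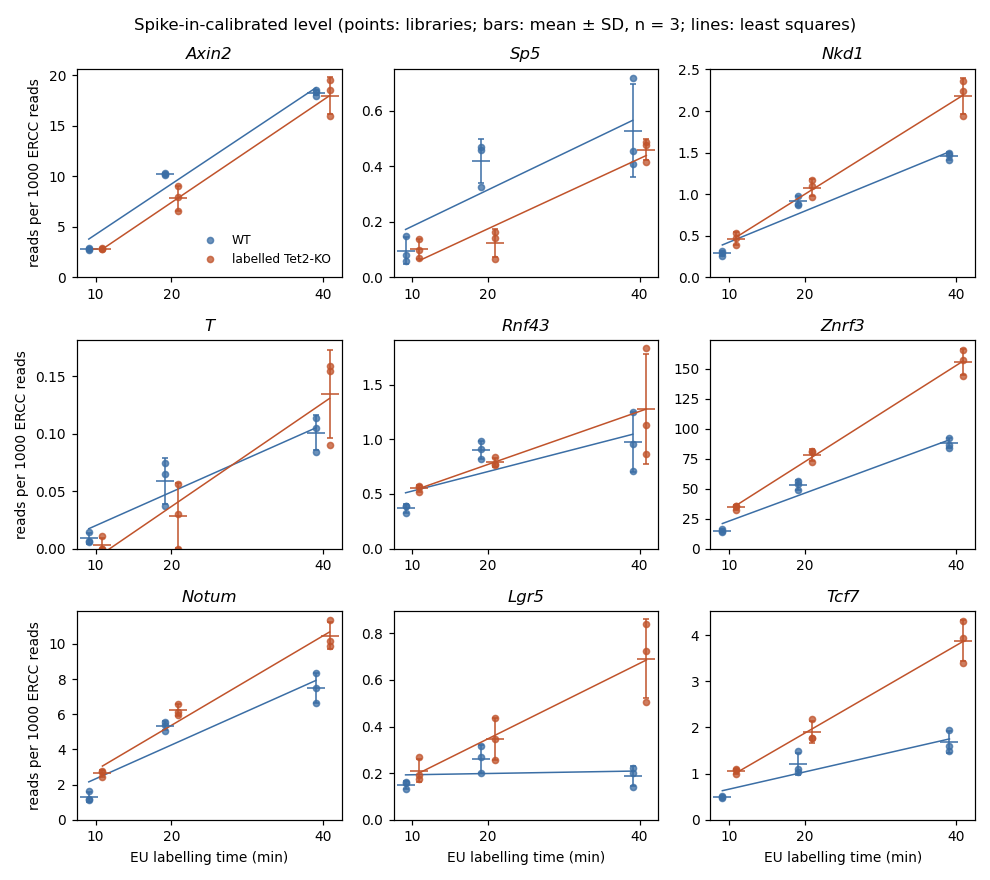
Reads per 1000 ERCC reads of the 9 genes (vertical axes from 0) against EU labelling time in minutes, for WT (blue) and Tet2-KO-labelled libraries (red). Points are libraries, bars the mean ± SD of 3 and lines the least-squares fit over 9 libraries. The lines of Axin2 are close to parallel (slopes 0.50 and 0.51), that of Lgr5 is flat in WT (0.00054), and that of Znrf3 is 1.72 times as steep in Tet2-KO-labelled libraries.

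The share of a gene also changed with labelling time within a genotype. From 10 to 40 min in WT, 2 targets took a larger share and 3 a smaller one, beside 16.1% and 29.5% of all genes tested. Axin2 (0.28) and Znrf3 (0.15) rose, and Lgr5 (-2.07), Rnf43 (-1.005) and Tcf7 (-0.64) fell, on the log2 scale. In Tet2-KO-labelled libraries 2 rose and 1 fell, beside 16.5% and 20.0% of all genes. Axin2 (0.61) and Znrf3 (0.11) rose and Rnf43 (-0.87) fell, while Lgr5 differed by -0.37 (adjusted p = 0.319) and Tcf7 by -0.18 (adjusted p = 0.277). The median of all genes tested was -0.14 in WT and -0.06 with Tet2-KO labels. The difference between genotypes itself changed from 10 to 40 min for 2 targets, Axin2 by 0.33 (SE 0.09, adjusted p = 0.0202) and Lgr5 by 1.70 (SE 0.40, adjusted p = 0.00538). Among all genes tested 5.89% were called in this direction and 3.36% in the other, which held 0 targets. For Tcf7 this change was 0.46 (SE 0.18, adjusted p = 0.0982). The Axin2 call was lost without WT replicate 3 at 10 min, WT replicate 2 at 40 min or Tet2-KO replicate 3 at either time (adjusted p = 0.0599 to 0.0736). Per ERCC read the change was called for Lgr5 (1.36, adjusted p = 0.0189) in the positive direction and for Znrf3 (-0.38, adjusted p = 0.0161) and Notum (-0.53, adjusted p = 0.0111) in the negative one, beside 0.552% and 19.3% of all genes tested. The Lgr5 call on this scale was lost without WT replicate 3 at 40 min (1.19, adjusted p = 0.0609) and without Tet2-KO replicate 3 at 10 min (adjusted p = 0.0522) or 40 min (adjusted p = 0.0756).

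Levels of the 9 genes were compared with each other per kilobase, in WT at 40 min as CPM per kb. How HTSeq was set to count introns is not given in the sources used here, and nascent RNA holds introns, so both lengths are given. Per kb of exon the order was Znrf3 (45.0 ± 0.37, SD, n = 3), Axin2 (13.4 ± 0.49), Notum (12.6 ± 0.95), Tcf7 (2.59 ± 0.27), Nkd1 (1.30 ± 0.07), Sp5 (1.02 ± 0.33), Rnf43 (0.60 ± 0.14), T (0.18 ± 0.02) and Lgr5 (0.074 ± 0.016). The ranges of Axin2 and Notum overlapped, as did those of Nkd1 and Sp5. Per kb of the whole gene Notum came first (4.10 ± 0.31), followed by Axin2 (2.43 ± 0.09), Znrf3 (2.11 ± 0.02) and Sp5 (0.76 ± 0.25). Lgr5 was last on both (0.0055 ± 0.0012 per kb of gene), and the ranges of Rnf43 and T overlapped on the second. Over the WT libraries of all times Lgr5 lay above T per kb of exon (0.19 against 0.14) and below it per kb of gene (0.014 against 0.041). Znrf3 spans 168524 bases, against 7388 for Notum and 2807 for Sp5.

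The rest of the pathway was described with 94 further genes in 8 groups by role, of which 78 had enough reads to test. As a share, 26 were lower and 22 higher under the Tet2-KO label, with a median log2 fold change of -0.01. Per ERCC read 58 were higher and 2 lower, with a median of 0.72. The background of all genes tested was 24.6% higher and 32.0% lower as a share, and 80.5% and 4.15% per ERCC read.

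Values for the groups are log2 fold changes of the share, unless said otherwise. A gene lower as a share need not be lower per ERCC read, where only 2 of the 78, Wls and Cdx1, were called lower. Of 13 ligand genes tested 1 was higher, Wnt6 (0.45, adjusted p = 0.0361), and 4 lower, led by Wnt8a (-1.11) and Wnt7a (-1.05), and these 3 were under 2 CPM in WT. Both genes for making and carrying ligands were lower. Wls, the carrier that brings Wnt proteins to the cell surface, had 59.6 ± 13.0 CPM in WT (SD, n = 9, over all times) and 30.4 ± 5.62 with Tet2-KO labels (-0.96, SE 0.04), and it was also lower per ERCC read (-0.23, adjusted p = 3.06e-04). Porcn, which adds the lipid to Wnt proteins, had 17.9 ± 1.80 and 10.99 ± 1.67 (-0.71, SE 0.07) and did not differ past the threshold per ERCC read (0.03, adjusted p = 0.726).

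Of 14 receptors and co-receptors 2 were higher, Ror1 (0.25) and Ryk (0.22), and 6 lower, led by the Frizzled genes Fzd8 (-0.81) and Fzd10 (-0.74). Among the 6 R-spondins and their other receptors, Rspo2 was higher (1.30, SE 0.17, from 1.08 to 2.62 CPM) and the other 5 lower, led by Rspo3 (-1.07) and Lgr6 (-0.70). Of 14 genes of signal transduction and the destruction complex 6 were higher and 0 lower, by small amounts. The largest were Btrc (0.23), the F-box protein that recognises phosphorylated β-catenin, and Tnks (0.17), which marks AXIN for degradation.

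Nuclear factors split evenly, with 5 of 13 higher and 5 lower. Tcf7l1, which encodes TCF3, the main repressive TCF of mES cells, was higher (0.50, SE 0.01), from 516 ± 43.3 to 728 ± 10.8 CPM (SD, n = 9), and so was Pygo1 (0.29). Lef1, itself a known Wnt target, was lower (-0.70, SE 0.08), as was Ctbp2 (-0.54). Per ERCC read neither was called (0.03, adjusted p = 0.775, and 0.20, adjusted p = 0.119). Secreted and membrane inhibitors were the group with the highest median (0.31), with 6 of 10 higher and 1 lower. Sfrp4 (1.24, SE 0.15) and Dkk3 (1.12, SE 0.12) led them, at 1.83 and 2.80 CPM in WT, and Kremen1 was lower by a little (-0.10).

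Among other known Wnt targets 1 of 6 tested was higher, Tnfrsf19 (0.72, SE 0.03), and 3 were lower. Cdx1, a homeobox gene, went from 19.5 ± 1.96 CPM in WT to 5.16 ± 0.89 with Tet2-KO labels (SD, n = 9), a log2 fold change of -1.93 (SE 0.08, adjusted p = 3.96e-21) and 3.81-fold lower. It was lower per ERCC read too (-1.19, adjusted p = 1.36e-34). Nkd2, the paralogue of Nkd1, was lower as a share (-0.35, adjusted p = 0.0360) and higher per ERCC read (0.38, adjusted p = 0.00732). Wls and Cdx1 were the 2 of the 78 pathway genes that were lower per ERCC read, as Axin2 and Sp5 were among the 8 targets.

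**Figure D4:**
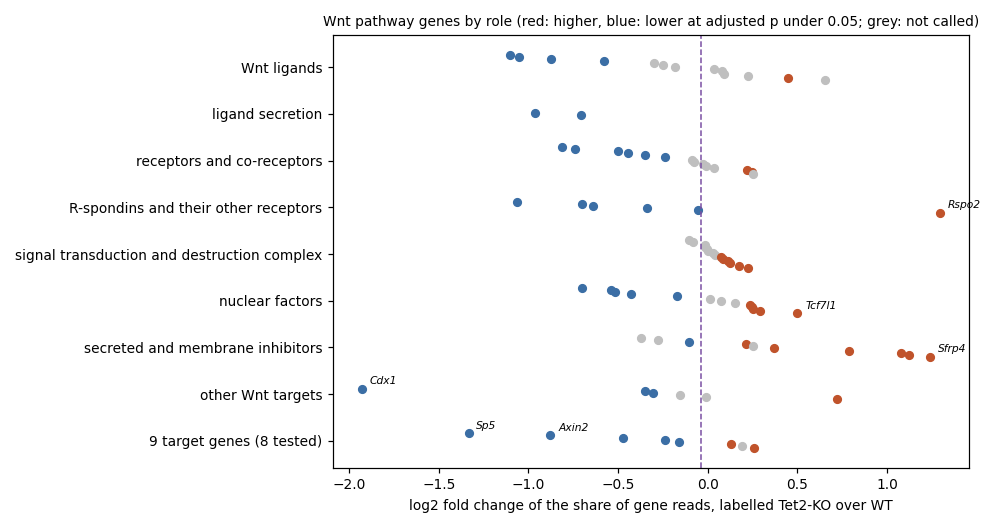
Log2 fold change of the share of gene reads, Tet2-KO-labelled libraries over WT, averaged over labelling times (horizontal axis), for the tested genes of 8 Wnt pathway groups and the 8 tested targets (rows). Each point is a gene, red and blue if called higher or lower at an adjusted p under 0.05 and grey if not, and the dashed line is the median of all genes tested (-0.04). Cdx1 lies lowest at -1.93, and no gene of signal transduction and the destruction complex is called lower.

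Across the 18 libraries the pattern of each target was compared with that of every gene with a mean log2 level above 2, as a description, since the points share genotype and labelling time. The gene most like Axin2 was Rad18, which encodes a DNA repair ubiquitin ligase (Pearson r = 0.987). It was Gm36752 for Sp5 (0.885), Fam57a for Nkd1 (0.865), Suz12 for Znrf3 (0.951), Slco3a1 for Notum (0.838), Cmc1 for Lgr5 (0.937) and 2400006E01Rik for Tcf7 (0.912). No target was the nearest gene of another, but Sp5, Lgr5 and T were outside the search, because they were below that level or the filter on counts. Among the targets themselves r was 0.722 for Axin2 with Nkd1 and 0.698 for Axin2 with Sp5, and -0.745 for Rnf43 with Znrf3.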

How the data were processed

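Read counts per gene of 18 libraries were used as the authors deposited them, without normalization. Per the labels and methods, reads were trimmed with Trimmomatic 0.39, aligned with HISAT2 2.2.1 to mm10 with GENCODE M19 and ERCC sequences, and counted with HTSeq 0.12.4, whose feature type, strand and overlap settings are not given in the sources used here. The authors then scaled to the spike-in and fitted lines on labelling time. Rows that name no gene (no feature, 13.2 to 16.9%, and the like) were left out. Intervals (± 2 SE) cover the spread between dishes of these lines as well as counting error, and not differences between other lines. Reads were counted without molecular identifiers.

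Gene names came from GENCODE M21 (54409 of 54446 identifiers found). Genes were kept with filterByExpr of edgeR (minimum count 10, 19910 genes) and fitted in 1 model of the 6 groups, with library sizes set to the ERCC totals or the gene totals, by glmQLFit and glmQLFTest (R 4.3.3, edgeR 4.0.16, limma 3.58.1), with Benjamini-Hochberg adjustment at 0.05. SEs are the absolute log2 fold change over the square root of F. Slopes are least squares with an intercept. On simulated counts for 19910 genes, averaged over labelling times per ERCC read, edgeR recovered 200 of 200 changed genes with 13 false calls. The changed genes were drawn from those with ample reads, and their median log2 fold changes were 0.997 and -0.997. A single spread was set for all genes, and most genes were left unchanged, unlike in these data. The simulation checks the code and cannot tell how the test performs on targets with few reads or small differences. Alternatives were DESeq2 1.42.0, other scalings and filters, a replicate block, each time alone and each library left out.

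The 9 genes and the lists were chosen with earlier results of these data known. All 9 were named, with Tet2, up to 2 higher and 2 lower genes of each pathway list by the size of the change in share among those past the threshold, and the most correlated gene of each target (log2 with 0.1 added to CPM). The most correlated gene of Rnf43 is not reported here.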

Additional observations from a re-analysis of the deposited data

Results flagged for a closer look

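The difference between genotypes changed from 10 to 40 min of labelling for 5 results by a test of that change itself (edgeR's quasi-likelihood test, adjusted over all genes). As a share of gene reads the difference rose by 1.70 on the log2 scale for Lgr5 (SE 0.40, adjusted p = 0.00538), from -0.53 to 1.17, and by 0.33 for Axin2 (SE 0.09, adjusted p = 0.0202), from -1.04 to -0.71. Per ERCC read the change was 1.36 for Lgr5 (SE 0.44, adjusted p = 0.0189), -0.38 for Znrf3 (SE 0.12, adjusted p = 0.0161) and -0.53 for Notum (SE 0.16, adjusted p = 0.0111), beside a median of -0.29 over all genes tested, of which 19.3% were called in the negative and 0.552% in the positive direction. The contrast per ERCC read was added after the data were seen. Without 1 library at a time, the calls on Znrf3 (-0.33, adjusted p = 0.0544) and Notum (-0.42, adjusted p = 0.0611) were both lost without WT replicate 3 at 10 min, and both without WT replicate 2 at 40 min (adjusted p = 0.0679 and 0.0703). That on Znrf3 was also lost without Tet2-KO replicate 1 or 3 at 10 min or replicate 2 at 40 min (adjusted p = 0.0512 to 0.0684).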

How the results depend on the processing

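No result changed direction under an alternative while past the threshold, and of 2392 comparisons of a value with its alternatives 2311 kept their side of the threshold, 74 lost the call and 7 gained one. Counts of targets called moved by more than 1.5 times in these cases. With at least 10 counts required in every library Sp5 was not tested, and 1 target in place of 2 was lower per ERCC read on average and at 20 min. As a share this left 4 lower on average and 3, 3 and 2 at 10, 20 and 40 min. At 10 min 2 targets in place of 4 were lower as a share with each labelling time fitted alone or with TMM, and 1 with DESeq2's size factors. At 20 min 0 in place of 1 were higher with protein-coding reads as the denominator, where the adjusted p of Znrf3 was 0.0573. The change of the difference from 10 to 40 min was called for 1 target, Lgr5, in place of 2 with TMM. From 10 and 20 min alone the slope was larger in Tet2-KO-labelled libraries for 3 genes, through the origin for 7 and from 20 and 40 min for 9. Per ERCC read DESeq2 gave Lgr5 no adjusted p for this change, which left 0 in place of 1. By 1 target, 5 in place of 6 were higher per ERCC read on average with no filter, DESeq2 or TMM (Rnf43), 4 in place of 5 were lower as a share on average with DESeq2's size factors (Nkd1), 3 in place of 4 at 10 min with no filter or DESeq2 (Nkd1), and 2 in place of 3 at 40 min with TMM or DESeq2's size factors (Notum). With no filter the share of T rose with time as well in Tet2-KO-labelled libraries. The counts fell for Sp5 because the gene was filtered out, and for Lgr5 because no adjusted p was given. Why the other calls changed was not tested. Notum rose in share from 10 to 40 min in WT with TMM (0.22, adjusted p = 0.0220), with DESeq2's size factors (0.22, adjusted p = 0.0238) and without WT replicate 2 at 10 min (0.23, adjusted p = 0.0168).

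With each library left out in turn, 5 to 6 targets were higher and 1 to 2 lower per ERCC read on average. The counts were 5 and 0 at 10 min, 2 and 2 at 20 min, and 5 to 6 and 0 at 40 min. As a share 2 were higher and 5 lower on average. At 10 min 1 was higher and 2 to 4 lower, at 20 min 0 to 1 higher with 3 to 4 lower, and at 40 min 3 higher with 1 to 3 lower. The change of the difference was called for 1 to 2 (per ERCC read 0 to 1 positive and 0 to 2 negative), the rise with time in WT for 2 to 3 and the fall for 3, in Tet2-KO-labelled libraries 2 and 1, and the slope was larger for 6 to 9 genes.

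Libraries with the same replicate number did not deviate together (median r -0.007 over 45 pairs), so the numbers do not pair them. A replicate block left all counts of calls as they were, with 2 targets higher and 5 lower as a share and 6 and 2 per ERCC read. Depth limits T, Lgr5 and Sp5 most, with 0 to 76 reads per library.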
